A study of Homo sapiens with 72 samples.

Results

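The HOX genes encode homeodomain transcription factors that lie in 4 clusters, HOXA, HOXB, HOXC and HOXD, and every protein-coding member whose symbol is HOX followed by a cluster letter and a number was taken, which gave 39 genes of the 26485 counted: 11 in HOXA, 10 in HOXB, 9 in HOXC and 9 in HOXD. In the embryo these genes are switched on in the order in which they stand on the chromosome, so that low-numbered members act in the head and hindbrain and high-numbered members act toward the tail, in the limbs and in the urogenital tract. Adult epithelia keep part of this positional code, Polycomb complexes hold the unused members silent, and the proteins bind DNA together with the PBX and MEIS cofactors. The clusters also hold the genes of the miR-10, miR-196 and miR-615 miRNAs. In the GENCODE annotation of GRCh38, HOXA spans chr7:27092993-27200091, HOXB chr17:48528526-48728750, HOXC chr12:53938831-54056030 and HOXD chr2:176092721-176190907.

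The libraries come from a study of TUT4 and TUT7, a pair of enzymes that add uridines to the 3′ ends of RNAs and that LIN28A recruits to the precursors of let-7. Poly(A) mRNA was sequenced in 36 libraries, 4 in each of 9 groups. DU145 is a prostate cancer line that lacks LIN28A, LIN28AOE is DU145 to which LIN28A was added by a lentivirus under a CMV promoter with puromycin selection, and IGROV1 is an ovarian cancer line that makes its own LIN28A. Each of these backgrounds had wild-type cells and 2 mutant clones with CRISPR/Cas9 nickase edits in both TUT4 (exon 12) and TUT7 (exon 14). The LIN28AOE clones carry the clone labels of the DU145 clones and were taken as the same edited clones. The 4 libraries of a group are successive passages. They were P157 to P160 for wild-type DU145, P9 to P12 and P8 to P11 for its clones, P1 to P4 for all LIN28AOE groups, P6 to P9 for wild-type IGROV1, and P2 to P5 and P3 to P6 for its clones. Labels number the 4 cultures of DU145 clone 2 and of both IGROV1 clones one by one, and whether each set is 1 clone or several sister clones cannot be told from them. The p-values measure the spread between passages of the same lines and clones, not the spread between independently edited clones. The cell lines were grown in different media, and line, medium and passage cannot be told apart. Within DU145, wild type (P157 to P160) and clones (P9 to P12 and P8 to P11) also differ in passage, which cannot be told apart from the edits. The same holds within IGROV1, where wild type (P6 to P9) was at later passages than clone 1 (P2 to P5) and shared only P6 with clone 2 (P3 to P6).

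Between 7195437 and 25054688 reads were counted on genes per mRNA library (median 13444850). The edited genes were read first. TUT7 (listed as ZCCHC6) had mean levels of 33.8 CPM in wild-type IGROV1 against 17.9 and 12.6 CPM in its clones, 43.2 against 14.2 and 23.9 CPM in DU145 and 62.1 against 23.2 and 36.1 CPM in LIN28AOE, where CPM is counts per 1000000 reads on genes. TUT4 (listed as ZCCHC11) was at 78.0 CPM in wild-type IGROV1 and at 26.6 and 27.1 CPM in its clones, and at 12 and 19.8 CPM in clone 1 of DU145 and LIN28AOE, but in their clone 2 it was at 41.7 against 56.7 CPM in wild-type DU145 and at 60.9 against 66.1 CPM in wild-type LIN28AOE. An mRNA level does not report on the edit itself. LIN28A was at most 0.46 CPM in wild-type DU145, 64.8 to 74.7 CPM in wild-type LIN28AOE and 176 to 250 CPM in wild-type IGROV1, and in the LIN28AOE clones it was higher than in their wild type, at 229 to 406 CPM. The markers of origin were mixed. Of 5 Müllerian and ovarian markers, wild-type IGROV1 had more PAX8 (640 against 0.859 CPM in wild-type DU145) and SOX17 (168 against 0.565 CPM), little WT1 and EMX2 (0.329 and 0.0129 CPM), and less MUC16 (2.11 against 23.1 CPM). In wild-type DU145 the prostate luminal markers KLK3 and TMPRSS2 were at 0 and 0.023 CPM, values that do not stand for every marker of that cell type. The epithelial markers EPCAM, KRT8, KRT18, KRT19 and CDH1 together ranged from 1118 to 1242 CPM in wild-type IGROV1, from 710 to 1204 CPM in clone 1 and from 324 to 380 CPM in clone 2, and EPCAM was at 77.4 CPM in wild type and at 0.245 and 0.127 CPM in the clones. KRT8 and CDH1 were also lower in both clones, but KRT18 was at 226 CPM in wild type, 292 CPM in clone 1 and 32.8 CPM in clone 2. KRT19 was at 696, 595 and 308 CPM in the same order. These epithelial levels differed between the same IGROV1 groups as the HOX genes described next, and their part in those results was not tested. The mRNA of a culture was measured as a whole, so a change in the share of cells that express a gene and a change in the level per cell cannot be told apart.

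The first question was which HOX genes each background used. Of the 39 genes, 30 had enough reads to be tested. The HOXB cluster carried most of the HOX mRNA in IGROV1, where its summed level was 696 ± 66.8 CPM (SD, n = 4) in wild-type cells and made up 91.4% of all HOX reads. Wild-type DU145 had 103 ± 7.97 CPM of HOXB mRNA, or 46.8% of its HOX reads, beside 57.5 ± 0.596 CPM of HOXC, 51.2 ± 4.88 CPM of HOXA and 7.94 ± 1.39 CPM of HOXD. Wild-type IGROV1 had 3.24 ± 0.274 CPM of HOXC mRNA in sum and 35.1 ± 6.14 CPM of HOXD. HOXC was thus the cluster with the least mRNA in the ovarian line and HOXD the one with the least in the prostate line.

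**Figure D1:**
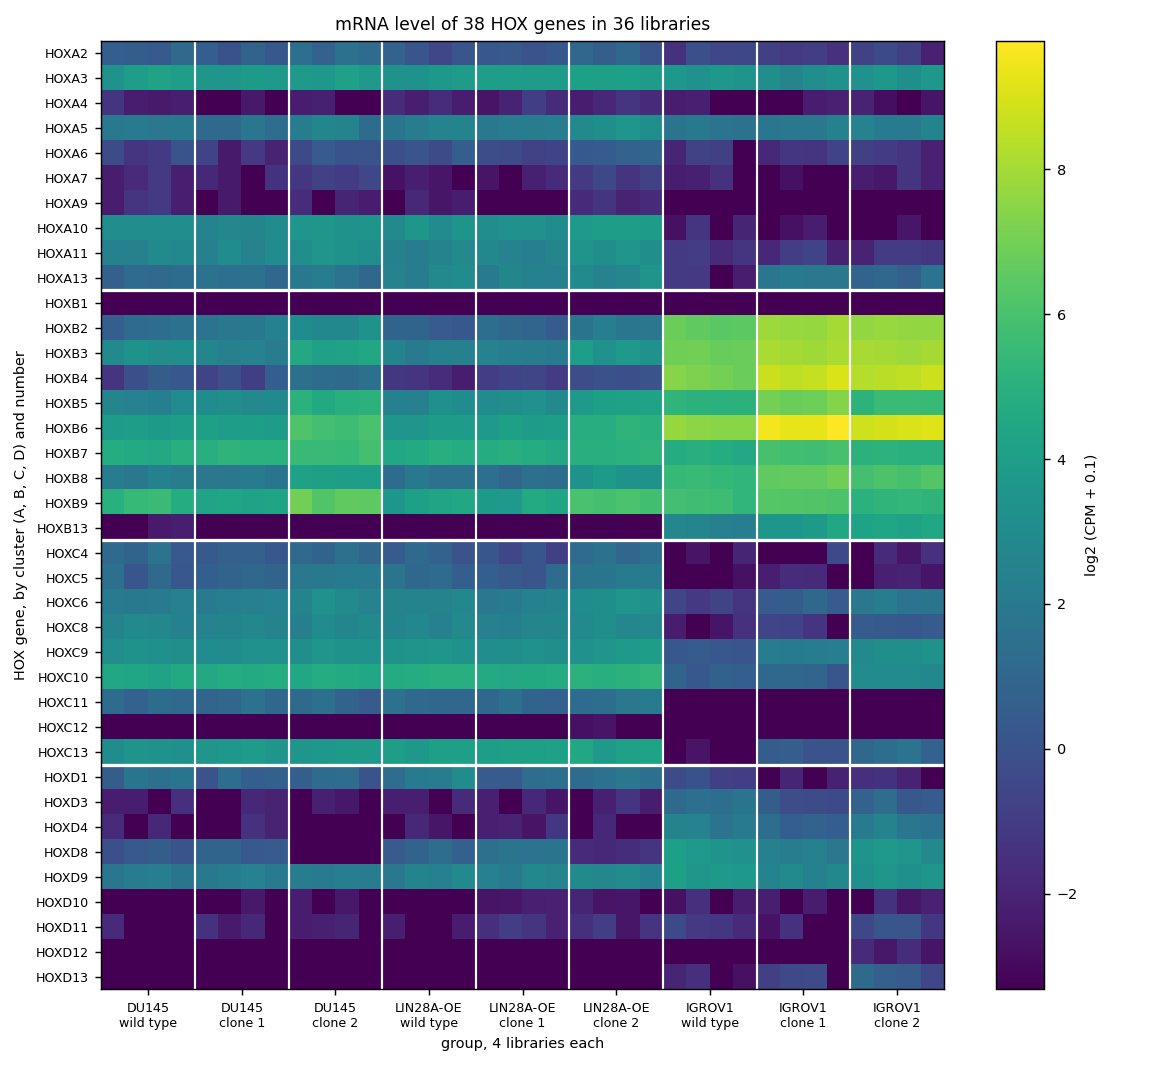
Level of each of 38 HOX genes (rows, by cluster and number) in each of the 36 mRNA libraries (columns, 4 per group), as log2 of CPM plus 0.1, with yellow as high and dark blue as low. The HOXB block is brightest in the IGROV1 columns, the HOXC block is bright in the DU145 and LIN28AOE columns and dark in IGROV1, and HOXB1 is at 0 in every library.

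Levels of different genes were compared per kilobase of the annotated transcript (RPKM). HOXB6 was the highest HOX gene in wild-type IGROV1, at 110 ± 8.88 RPKM, with HOXB4 at 69.6 ± 10.9, HOXB2 at 56.8 ± 7.81 and HOXB3 at 35.3 ± 2.68 RPKM behind it. HOXB4, a factor known for expanding blood stem cells, and HOXB2 lay within about their SDs of each other, while HOXB6 stood above both. In wild-type DU145 HOXB7 led with 19.6 ± 1.84 RPKM, followed by HOXB9 with 14.7 ± 3.96 and HOXC10 with 11.2 ± 1.36 RPKM, whose spreads touch. HOXB7 had almost the same level in wild-type IGROV1, 19.7 ± 1.76 RPKM. In HOXA, HOXA3 was at 3.74 ± 0.433 RPKM in wild-type IGROV1 and 4.96 ± 1.13 RPKM in wild-type DU145. HOXD9 led HOXD in all 9 groups, with 7.39 RPKM in wild-type IGROV1, 2.1 in wild-type DU145 and 2.97 in wild-type LIN28AOE.

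**Figure D2:**
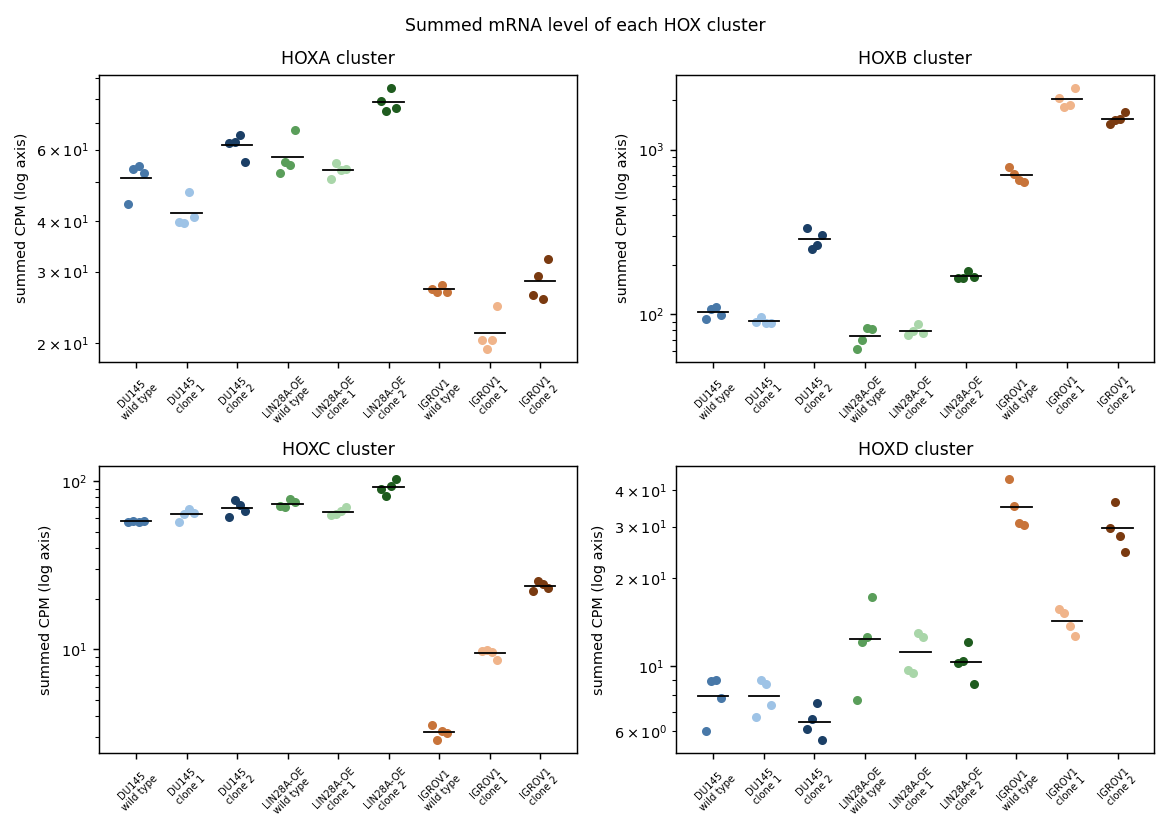
Summed CPM of the genes of each HOX cluster per library (points, log axis) with the group mean (line), for 9 groups of 4 libraries. The mean HOXB sum was 696 in wild-type IGROV1, 2035 in its clone 1 and 1541 in its clone 2, and it was 287 in DU145 clone 2 against 103 in wild-type DU145.

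Wild-type IGROV1 and wild-type DU145 differed in 24 of the 30 tested HOX genes (edgeR quasi-likelihood test, Benjamini-Hochberg adjusted p under 0.01 over all genes), where 60% of all 15556 tested genes differed, 28.7% higher and 31.3% lower in IGROV1. In IGROV1 11 genes were higher, 7 of HOXB and 4 of HOXD, and 13 were lower, all 8 tested genes of HOXC, 4 of HOXA and HOXD1. The median log2 difference was 3.68 over the 9 tested HOXB genes and -5.27 over the 8 HOXC genes, against -0.03 over all genes. Some genes passed the read filter only through the line where they are high. HOXC4, HOXC5, HOXC11 and HOXA10 had at most 5 reads in any IGROV1 library. HOXB13, HOXD3 and HOXD4 had at most 5 in any DU145 or LIN28AOE library. The directions of such genes, and in part the counts and medians given here, follow from the filter.

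Among the HOXB genes, HOXB4 stood at 166, 146, 132 and 114 CPM in the wild-type IGROV1 libraries and at 0.307, 0.831, 1.38 and 1.06 CPM in those of DU145. Every IGROV1 library was more than an order of magnitude above every DU145 library, a log2 difference of 7.34 ± 0.242 (SE; adjusted p = 2.73e-23). HOXB2, a hindbrain patterning gene, was at 114, 95.1, 84.8 and 87.8 CPM against 1.43, 2.28, 2.58 and 2.95 CPM, again without overlap (5.45 ± 0.207). HOXB13, the HOX gene that marks normal prostate epithelium, was found in the ovarian line, at 6.58, 6.22, 5.06 and 4.71 CPM, and had only 2 reads in the 4 wild-type DU145 libraries and 0 in the clones of DU145 and all LIN28AOE libraries. The ratio of the wild types was 110 (95% counting interval 30.2 to 909).

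The HOXC and posterior HOXA genes ran the other way. HOXC13, a regulator of hair and nail keratins at the 5′ end of its cluster, was at 8.08, 10.7, 10.5 and 9.54 CPM in wild-type DU145 and had a single read in the 4 wild-type IGROV1 libraries, a ratio of 686 (122 to 2.72e+04). HOXC11 was at 2.35, 1.66, 2.39 and 2.12 CPM in DU145 and had no read in any of the 12 IGROV1 libraries, which makes it at least 50.3-fold higher in DU145 (0 reads were set to 3 over the group). HOXC5 had 2.76, 1.04, 2.21 and 1.06 CPM in DU145 and 1 read in all of wild-type IGROV1. All 3 genes were thus at or next to 0 reads in wild-type IGROV1. HOXC8 was at 5.73, 7.48, 6.90 and 5.30 CPM against 0.104, 0, 0.0665 and 0.259 CPM, and HOXC10 at 23.3, 21.6, 18.5 and 24.7 CPM against 1.76, 1.13, 1.60 and 1.40 CPM. HOXA10, which patterns the uterus in the female tract, was at 8.39, 8.62, 8.37 and 8.60 CPM in DU145 and at 0.0518, 0.296, 0 and 0.155 CPM in IGROV1 (log2 difference -5.89 ± 0.317). Both HOXA10 and its neighbour HOXA11 (-4.14 ± 0.262) were low in the line of ovarian origin.

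The main comparison asked what changed in the TUT4/7 mutants. In IGROV1, 19 of the 30 tested HOX genes differed between the mean of both mutant clones and wild type, 14 higher and 5 lower, where 33.2% of all tested genes differed, 15.1% higher and 18.1% lower. The direction followed the cluster: 8 of 9 HOXB genes and 5 of 8 HOXC genes rose, 4 of 5 HOXD genes fell, and in HOXA 1 rose and 1 fell. The median log2 change was 1.18 in HOXB, 2.38 in HOXC, -0.85 in HOXD and -0.14 in HOXA, against 0.00 over all genes.

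The HOXB genes of IGROV1 moved from a high level to a higher one. HOXB6 was at 206, 181, 174 and 175 CPM in wild-type cells, at 752, 615, 653 and 876 CPM in clone 1 and at 449, 496, 526 and 567 CPM in clone 2. All 8 mutant libraries lay above all 4 wild-type libraries, and the log2 change was 1.75 ± 0.116 (adjusted p = 1.43e-14). HOXB4 went from the wild-type values above to 430, 374, 401 and 524 CPM in clone 1 and 323, 347, 367 and 446 CPM in clone 2 (1.55 ± 0.148). HOXB13 rose from at most 6.58 CPM to 12.1, 11.9, 14.1 and 22.3 CPM and to 19.3, 20.7, 18.4 and 22.8 CPM, without overlap (1.65 ± 0.209; adjusted p = 2.77e-06). HOXB2, HOXB3, HOXB5 and HOXB8 rose by 1.0 to 1.21 on the log2 scale and HOXB7 by 0.74, whereas HOXB9 differed by 0.07 ± 0.16 and did not pass. As a sum, HOXB mRNA was 2.92 times the wild-type level in clone 1 and 2.21 times in clone 2.

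Several HOXC genes and HOXA13, all low in wild-type IGROV1, were higher in both clones. Their neighbours did not all share the gain. HOXC11 had no read in any IGROV1 library, HOXC4 and HOXC5 were not called, and HOXA10 and HOXA11 were at most 0.516 CPM in the clones. HOXC13, with 1 read in wild type, reached 1.37, 1.48, 0.929 and 0.906 CPM in clone 1 and 2.07, 2.55, 3.09 and 1.65 CPM in clone 2, which are 89.1 times (15.5 to 3.57e+03) and 164 times (29.1 to 6.53e+03) the wild-type level by counting error alone. HOXC9 rose from 1.14, 1.30, 1.07 and 1.04 CPM to 4.46, 4.34, 4.44 and 4.79 CPM and to 7.31, 8.74, 8.96 and 10.0 CPM, a log2 change of 2.47 ± 0.145 (adjusted p = 5.49e-16). HOXC6 rose from 0.570, 0.356, 0.532 and 0.311 CPM to 1.26, 1.38, 1.96 and 1.29 CPM and to 3.58, 4.67, 3.09 and 3.16 CPM (2.38 ± 0.222). For HOXC13, HOXC9 and HOXC6 the wild-type, clone 1 and clone 2 libraries formed 3 ranges that did not overlap.

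HOXC8 (2.58 ± 0.411) and HOXC10 (1.33 ± 0.135) rose as well, but in clone 1 HOXC10 was at 2.0, 1.96, 1.86 and 1.03 CPM, which overlapped wild type, and in clone 2 it was at 7.87, 7.94, 7.83 and 6.71 CPM. HOXC8 was at 0.572, 0.529, 0.310 and 0 CPM in clone 1 and at 1.31, 1.2, 1.13 and 1.25 CPM in clone 2. HOXA13, the last gene of its cluster and a factor of distal limb and urogenital development, was at 0.362, 0.356, 0 and 0.104 CPM in wild type, 3.37, 4.18, 3.72 and 3.75 CPM in clone 1 and 1.77, 2.04, 1.51 and 3.03 CPM in clone 2. It was the single HOXA gene that rose (3.69 ± 0.349, adjusted p = 1.06e-10). Even after these gains, HOXC mRNA summed to 9.51 ± 0.568 and 23.7 ± 1.43 CPM in the clones, below the 57.5 CPM of wild-type DU145.

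Of the 5 tested HOXD genes of IGROV1, 4 fell in the mean of both clones, HOXD1, HOXD3, HOXD8 and HOXD9. HOXD1 was at 0.725, 0.889, 0.466 and 0.414 CPM in wild type, 0, 0.159, 0 and 0.129 CPM in clone 1 and 0.252, 0.279, 0.151 and 0 CPM in clone 2 (mean of both clones -2.31 ± 0.548; adjusted p = 8.13e-04). HOXD8 went from 16.9, 13.5, 11 and 9.84 CPM to 5.14, 4.61, 5.16 and 3.75 CPM in clone 1, while clone 2 held 11.1, 12.9, 11.3 and 7.17 CPM and overlapped wild type. HOXD9 likewise went from 17.5, 12, 13.3 and 12.5 CPM to 6.0, 7.36, 5.37 and 6.73 CPM in clone 1, with 9.53, 12.2, 9.33 and 12.2 CPM in clone 2. For both genes all clone 1 libraries lay below all wild-type libraries. The call of HOXD3 (-1.11 ± 0.276) was lost without wild-type replicate 4 (-0.97, adjusted p = 1.25e-02).

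**Figure D3:**
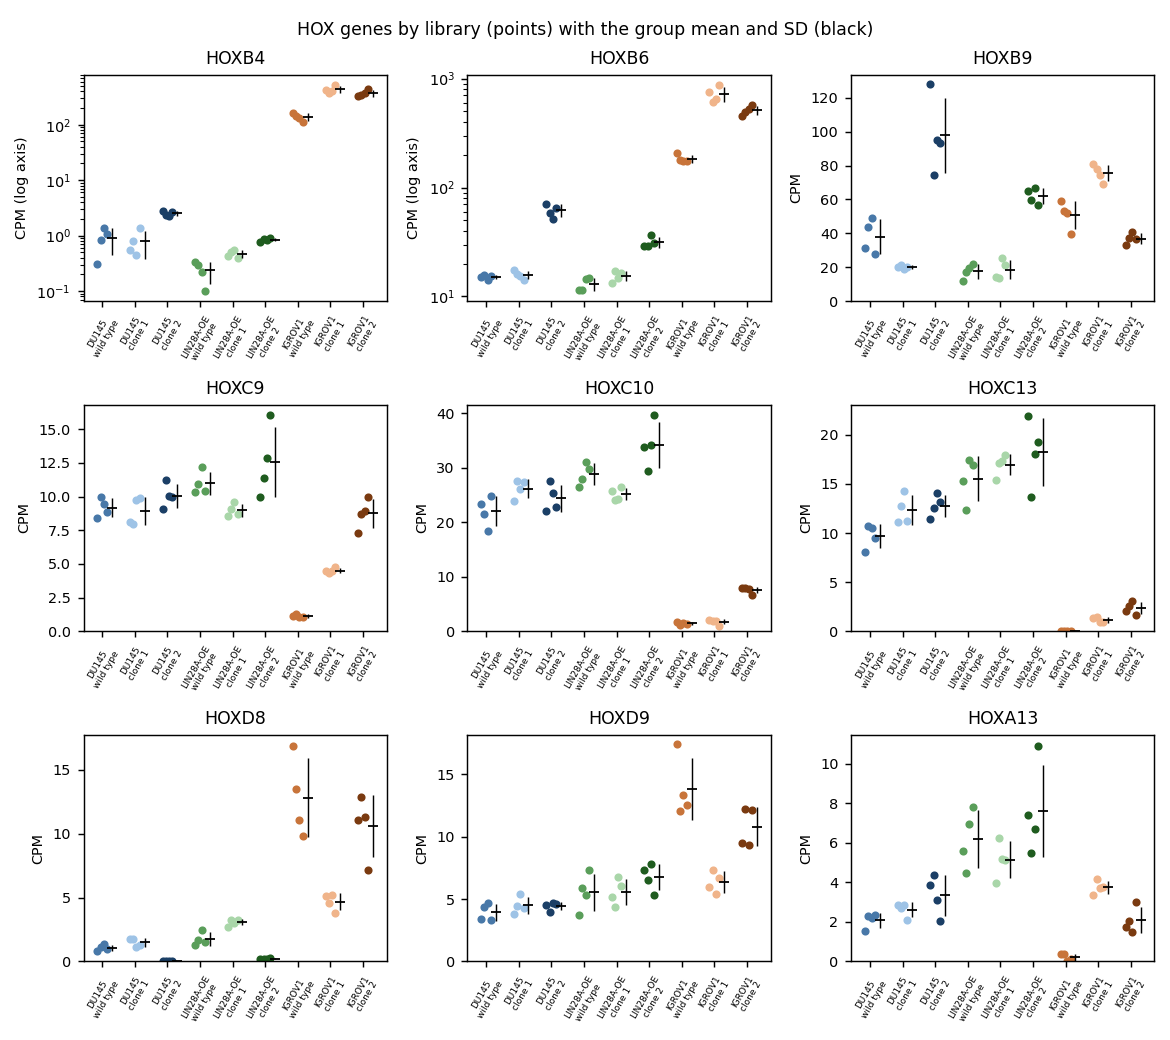
CPM of 9 HOX genes in every library (points) with the mean and SD of the group (black), for the 9 groups. HOXB4 and HOXB6 are on log axes. HOXC9, HOXC13 and HOXA13 are low in wild-type IGROV1 and higher in both clones, HOXC10 stands apart in clone 2 and overlaps wild type in clone 1, HOXD8 is at 0 in all 4 libraries of DU145 clone 2, and HOXB9 parts the clones of each background.

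Taken one clone at a time, 20 HOX genes differed from wild type in IGROV1 clone 1 (31.1% of all genes) and 12 in clone 2 (30.1%). In both clones the same 11 genes were higher, HOXA13, HOXB2, HOXB3, HOXB4, HOXB6, HOXB8, HOXB13, HOXC6, HOXC8, HOXC9 and HOXC13, where 7.53% of all genes were higher in both, and no HOX gene was lower in both (9.94% of all genes). HOXB5, HOXB7 and HOXB9 were called higher in clone 1 alone, and HOXC10 in clone 2 alone. In clone 1 the call of HOXB9 (0.63 ± 0.184) was lost without any one of 6 of the 8 libraries (adjusted p up to 3.44e-02), that of HOXC8 without any one of 5 (up to 2.56e-02), that of HOXD4 without wild-type replicate 1 or 2 or clone 1 replicate 2 (up to 1.55e-02), and that of HOXD1 without clone 1 replicate 1 (1.67e-02).

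The 2 IGROV1 clones were then tested against each other. They differed in 14 of 30 HOX genes, where 18.8% of all genes differed (8.79% higher and 10% lower in clone 1), and the sign again followed the cluster: 5 HOXB genes were higher in clone 1, and 5 HOXC and 2 HOXD genes were higher in clone 2. HOXB5 was at 130, 112, 117 and 164 CPM in clone 1 and at 35.7, 47.9, 48.8 and 46.5 CPM in clone 2, where wild-type cells had 33.1 to 37.7 CPM (clone 1 minus clone 2 1.64 ± 0.169). HOXB9 was at 80.6, 77.8, 74.4 and 69.2 CPM against 32.8, 37.4, 40.9 and 36.4 CPM (1.11 ± 0.186), and the clones lay on opposite sides of the wild-type mean of 51.0 CPM. HOXC10 showed the largest log2 difference of the 14 (-2.02 ± 0.144; adjusted p = 4.17e-13), followed in HOXC by HOXC8 (-1.48 ± 0.335) and HOXC6 (-1.25 ± 0.203), all higher in clone 2. HOXD8 (-1.09 ± 0.181) was also higher in clone 2.

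Some of these clone differences were thin. HOXA13 (0.92 ± 0.269, adjusted p = 9.02e-03) lost its call without any one of 7 of the 8 libraries (adjusted p up to 3.76e-02), HOXD9 without any one of 4 (up to 1.69e-02) and HOXC13 without clone 1 replicate 3 or clone 2 replicate 3 (1.17e-02 and 1.42e-02). The count was 9 with replicates 1 and 2 alone, 6 with replicates 3 and 4 alone and 8 when the fit held only these 2 groups.

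**Figure D4:**
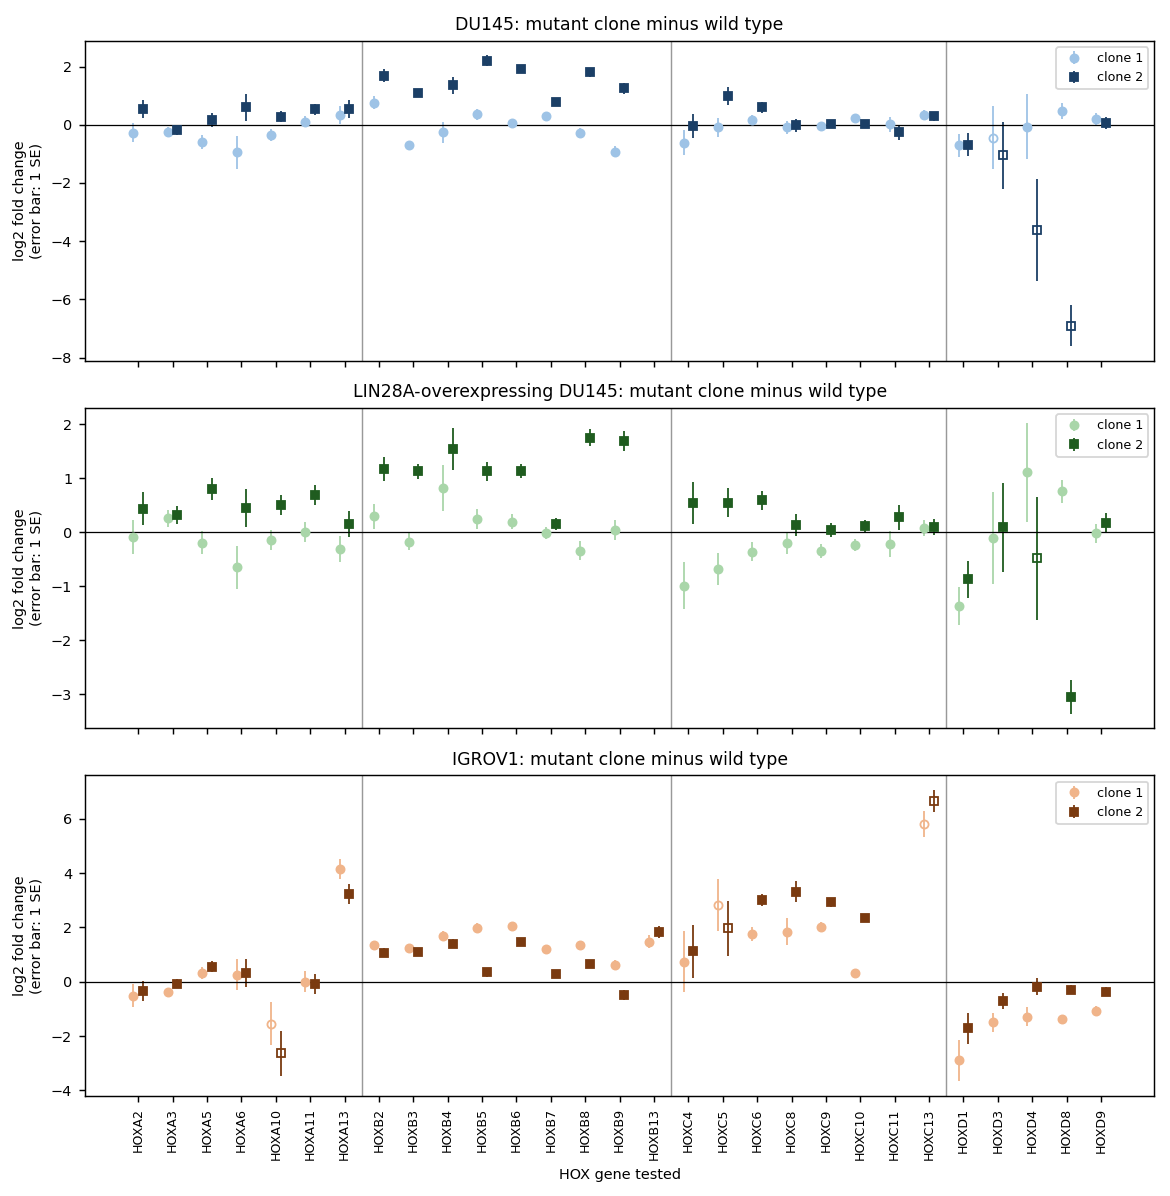
Log2 fold change with its SE (bars) of tested HOX genes in clone 1 (circles) and clone 2 (squares) against wild type, in DU145 (top), LIN28AOE (middle) and IGROV1 (bottom). Open symbols have at most 3 reads in one of the groups, so their fitted value depends on the prior count, and genes with at most 3 reads in both are left out. The squares lie above 0 for HOXB2 to HOXB9 in DU145 and for HOXC6 to HOXC10 in IGROV1, and HOXD8 lies far below 0 in clone 2 of DU145 and of LIN28AOE.

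In DU145, without LIN28A, 6 of 30 HOX genes differed between the mutants and wild type, where 18.1% of all genes differed, 7.84% higher and 10.2% lower. HOXB2 (1.22 ± 0.197), HOXB5 (1.28 ± 0.173), HOXB6 (0.98 ± 0.12), HOXB7 (0.54 ± 0.102) and HOXB8 (0.76 ± 0.145) rose, 5 of 9 tested HOXB genes, and HOXD8 fell. No tested gene of HOXA or HOXC passed. The 2 clones were not alike. Against wild type, 3 genes were called in clone 1, HOXB2 higher and HOXB3 and HOXB9 lower (21.8% of all genes were called), and 9 in clone 2, HOXB2 to HOXB9 higher and HOXD8 lower (20.5%). In clone 1 the edgeR count was 0 with replicates 1 and 2 alone (7 at an unadjusted p under 0.05) and with replicates 3 and 4 alone (3), DESeq2 called 3 in all libraries, and HOXB2 in clone 1 (0.76 ± 0.227) lost its call without any one of 6 of the 8 libraries (adjusted p up to 5.30e-02).

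The summed HOXB level of DU145 shows the division, with 88.4 to 95.6 CPM in clone 1, 93.4 to 111 CPM in wild type and 249 to 333 CPM in clone 2. HOXB6 was at 14.9, 15.9, 14.2 and 15.6 CPM in wild type, 17.5, 16, 15.5 and 14.3 CPM in clone 1 and 70.6, 58.8, 51.3 and 65.5 CPM in clone 2. HOXB5 was at 6.04, 5.50, 4.87 and 8.25 CPM, at 8.12, 9.05, 7.20 and 7.23 CPM and at 33.8, 24.9, 29.3 and 33.8 CPM in the same order. Clone 1 overlapped wild type for both genes and clone 2 lay above all other libraries. HOXB2, the single HOX gene called higher in both clones, was at 3.05, 3.68, 3.82 and 5.28 CPM in clone 1 and at 8.12, 6.75, 6.92 and 10.3 CPM in clone 2. HOXB8, known for holding myeloid progenitors immature, was at 4.40, 3.74, 5.24 and 4.36 CPM, at 3.60, 3.59, 4.18 and 3.34 CPM and at 18.1, 17, 16 and 16.2 CPM. HOXB7, the leading HOX gene per length in wild-type DU145, went from 27.7, 25.2, 24.1 and 29.7 CPM to 29.6, 36, 32.8 and 32.8 CPM and to 47.7, 46.7, 43.4 and 60.4 CPM.

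HOXB3 and HOXB9 were called in opposite directions in the clones. HOXB9 was at 31.2, 43.9, 49.3 and 27.7 CPM in wild-type DU145, at 20.2, 21.2, 18.9 and 19.9 CPM in clone 1 (-0.92 ± 0.192) and at 128, 74.7, 95 and 93.4 CPM in clone 2 (1.25 ± 0.188). Its 3 groups did not overlap. HOXB3 was at 7.37, 10.4, 8.83 and 8.95 CPM, at 6.46, 5.20, 5.6 and 4.45 CPM (-0.70 ± 0.151) and at 23.7, 18.1, 18.8 and 21.9 CPM (1.10 ± 0.139). Opposite calls were made in 1.8% of all genes. HOXD8 was at 0.818, 1.14, 1.38 and 0.942 CPM in wild type and at 1.75, 1.79, 1.16 and 1.25 CPM in clone 1, and clone 2 had no read of it in 4 libraries, which makes wild type at least 14.5-fold and clone 1 at least 20.2-fold higher than clone 2. Its neighbour HOXD9, at 4.0 to 4.70 CPM in clone 2 and 3.30 to 4.69 CPM in wild type, did not pass the test.

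The clones of DU145 differed from each other in 12 of 30 HOX genes, where 31.1% of all genes differed (15.7% higher and 15.4% lower in clone 1), with 11 higher in clone 2 and HOXD8 higher in clone 1. All 8 tested HOXB genes other than HOXB13 were among the 11, with HOXB9 (clone 1 minus clone 2 -2.17 ± 0.195), HOXB8 (-2.07 ± 0.159), HOXB6 (-1.84 ± 0.134), HOXB5 (-1.83 ± 0.184), HOXB3 (-1.8 ± 0.145) and HOXB4 (-1.62 ± 0.301) the furthest apart. HOXC5 was at 1.39, 1.70, 2.04 and 1.67 CPM in clone 1 and at 3.63, 3.88, 3.90 and 4.06 CPM in clone 2 (-1.07 ± 0.302). HOXA10 lost its call without any one of 7 of the 8 libraries (adjusted p up to 4.65e-02), HOXC5 without any one of 4 (2.39e-02) and HOXB7 without clone 1 replicate 1 or clone 2 replicate 4 (2.42e-02), and 6 genes were called with replicates 3 and 4 alone.

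In LIN28AOE, with LIN28A present, 8 of 30 HOX genes differed between mutants and wild type, where 17.9% of all genes differed, 7.35% higher and 10.6% lower. HOXB2 (0.74 ± 0.201), HOXB3 (0.48 ± 0.128), HOXB5 (0.69 ± 0.162), HOXB6 (0.66 ± 0.117), HOXB8 (0.70 ± 0.145) and HOXB9 (0.86 ± 0.17) rose, and HOXD1 (-1.11 ± 0.288) and HOXD8 (-1.14 ± 0.225) fell. Several of these calls hung on 1 library. Without wild-type replicate 4, 5 genes were called, with HOXB2 (adjusted p = 3.49e-02), HOXB3 (1.68e-02) and HOXD1 (4.96e-02) lost. HOXB2 was also lost without wild-type replicate 3, clone 1 replicate 1 or clone 2 replicate 2, HOXB3 without any one of 5 further libraries, and HOXB5 without wild-type replicate 1 or 2 (1.18e-02 and 1.67e-02). In all libraries DESeq2 also called 8. The edgeR count was 3 with replicates 1 and 2 alone and 0 with replicates 3 and 4 alone, where 7 genes had an unadjusted p under 0.05.

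By clone, 3 genes were called in LIN28AOE clone 1 (25.2% of all genes) and 11 in clone 2 (20.6%), 7 of them HOXB genes. HOXD1 and HOXD8 were among the 3 calls in clone 1. All 3 were lost without wild-type replicate 4 or clone 1 replicate 2 (7 and 4 genes at an unadjusted p under 0.05), and 1 was left without wild-type replicate 1 or 2 or clone 1 replicate 1. The adjusted p then reached 2.26e-02 for HOXD1 and 2.55e-02 for HOXD8, and DESeq2 called 3 in all libraries. In clone 2 HOXA5, HOXA11, HOXC6 and HOXB2, HOXB3, HOXB4, HOXB5, HOXB6, HOXB8 and HOXB9 were higher and HOXD8 lower. HOXB9 was at 11.6, 17.3, 19.7 and 22.0 CPM in wild type, 14.1, 13.7, 25.2 and 21.4 CPM in clone 1 and 65.0, 59.7, 66.6 and 56.9 CPM in clone 2. HOXB8 was at 2.38, 3.78, 2.94 and 2.94 CPM, at 2.66, 1.91, 2.73 and 2.51 CPM and at 10.1, 14.0, 10.1 and 10.3 CPM. HOXB6 was at 11.5, 11.6, 14.5 and 14.8 CPM, at 13.4, 17.3, 14.9 and 16.3 CPM and at 28.8, 28.8, 36.4 and 31.2 CPM. In all 3 genes clone 1 overlapped wild type and clone 2 stood above both. Of the 11 calls in clone 2, HOXB4 was lost without wild-type replicate 4 (1.26e-02), HOXA5 and HOXA11 each without any one of 3 libraries (up to 2.27e-02 and 2.09e-02) and HOXC6 without any one of 7 of the 8 (4.45e-02).

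HOXB5 was at 5.26, 5.11, 9.40 and 8.31 CPM in wild-type LIN28AOE, at 7.98, 8.75, 9.61 and 7.74 CPM in clone 1 and at 13.3, 17.2, 17.9 and 18.4 CPM in clone 2. HOXB3 was at 5.92, 4.18, 5.21 and 5.17 CPM, at 5.44, 4.93, 4.53 and 3.97 CPM and at 15.9, 9.79, 13.2 and 10.3 CPM. HOXB2 was at 1.77, 1.74, 1.25 and 1.12 CPM, at 2.54, 2.06, 1.8 and 1.32 CPM and at 3.14, 4.77, 3.46 and 3.54 CPM. For each of these genes the clone 2 libraries lay above all others and clone 1 overlapped wild type.

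HOXD8 stood on opposite sides of wild type in the LIN28AOE clones. It was at 1.27, 1.69, 2.50 and 1.52 CPM in wild-type LIN28AOE, at 2.72, 3.24, 3.04 and 3.24 CPM in clone 1 and at 0.206, 0.184, 0.226 and 0.303 CPM in clone 2 and did not overlap between the groups. The calls were 0.76 ± 0.21 in clone 1 and -3.05 ± 0.311 in clone 2, and opposite calls were made in 2.29% of all genes. HOXD1, the first gene of its cluster, was at 2.49, 4.30, 4.63 and 8.11 CPM in wild type, at 1.27, 1.25, 2.48 and 2.65 CPM in clone 1 and at 2.32, 2.94, 3.61 and 2.63 CPM in clone 2, and the wide wild-type range overlapped both clones.

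The LIN28AOE clones differed from each other in 14 of 30 HOX genes (37.6% of all genes, 17.6% higher and 20% lower in clone 1), 13 higher in clone 2 and HOXD8 higher in clone 1 (3.81 ± 0.291; adjusted p = 5.47e-12). HOXB8 (-2.09 ± 0.158), HOXB9 (-1.65 ± 0.191) and HOXB3 (-1.30 ± 0.142) were furthest apart among the HOXB genes. HOXC4 was at 1.03, 0.588, 1.05 and 0.463 CPM in clone 1 and 2.32, 2.94, 1.88 and 2.63 CPM in clone 2 (-1.53 ± 0.416), HOXC5 at 1.39, 1.18, 0.992 and 2.32 CPM against 3.35, 3.31, 3.92 and 4.25 CPM (-1.23 ± 0.286), HOXC6 at 3.75, 4.19, 5.27 and 5.82 CPM against 8.30, 9.12, 11.7 and 9.91 CPM (-0.95 ± 0.169) and HOXA5 at 3.75, 4.56, 4.59 and 4.70 CPM against 7.63, 8.94, 11.6 and 9.0 CPM (-0.99 ± 0.209). These 4 genes did not overlap between the clones. The annotated span of HOXC4 covers HOXC5 and overlaps HOXC6, so reads can be split between them in ways the counts do not show. HOXC10 lost its call without any one of 7 of the 8 libraries (adjusted p up to 8.94e-02), HOXA10 without any one of 6 (1.87e-02), HOXA11 and HOXC4 each without any one of 3 (1.66e-02 and 1.46e-02) and HOXB2 without clone 2 replicate 2 (1.02e-02), and 8 genes were called with replicates 1 and 2 alone and 6 with replicates 3 and 4 alone.

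Clone by clone, with the same labels in DU145 and LIN28AOE, HOXD8 was in both backgrounds higher in clone 1 (11.3% of all genes were) and HOXA10, HOXB2, HOXB3, HOXB5, HOXB6, HOXB8, HOXB9 and HOXC5 were higher in clone 2 (12.1%). HOXA10 was at 5.72, 6.63, 6.4 and 7.92 CPM against 11.9, 12, 10.0 and 11 CPM in DU145 and at 8.52, 9.70, 9.61 and 8.27 CPM against 13.2, 16, 16 and 14.7 CPM in LIN28AOE. The clone 2 libraries lay above the clone 1 libraries in both backgrounds. Whether the change of HOX genes in the mutant clones differed with LIN28A was asked through the difference of the mutant effects in LIN28AOE and DU145. LIN28A itself was higher in the LIN28AOE clones than in their wild type, as given above. Wild type and clones differ in passage within DU145 but not within LIN28AOE, so LIN28A and passage cannot be told apart in this difference. The difference was called for 0 of 30 HOX genes by edgeR and 0 by DESeq2, with 5 at an unadjusted p under 0.05, where 0.489% of all genes were called (0.18% positive and 0.309% negative). 

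The change from wild type to mutant clones was not the same in the 2 lines. With 2 clones per line, an effect of the mutations and differences between clones cannot be told apart. Passage also differs between wild type and clones in both lines and cannot be told apart from the mutations. The difference of the mutant effect in IGROV1 and DU145 was called for 10 of 30 HOX genes, where 24.2% of all genes were called, 11.3% positive and 12.8% negative. Of the 10, 9 were positive and 1 negative. HOXC6 (2.0 ± 0.277), HOXC8 (2.63 ± 0.457), HOXC9 (2.49 ± 0.184), HOXC10 (1.19 ± 0.168) and HOXC13, 5 of 8 tested HOXC genes, rose in IGROV1 and did not pass in DU145, where HOXC9 for example was at 8.39, 9.97, 9.47 and 8.83 CPM in wild type, 8.12, 7.98, 9.77 and 9.87 CPM in clone 1 and 9.08, 11.3, 10.0 and 9.96 CPM in clone 2. HOXA13 (3.25 ± 0.455), HOXB3 (0.98 ± 0.165) and HOXB6 (0.77 ± 0.159) also had the more positive change in IGROV1. HOXD8 was called as well, with a fitted value that depends on the 0 reads of DU145 clone 2, and HOXD9 gave -0.84 ± 0.23, a call that was lost without DU145 wild-type replicate 1 or 4 or IGROV1 wild-type replicate 1 (1.23e-02 to 1.78e-02). With replicates 1 and 2 alone 6 genes were called and with replicates 3 and 4 alone 5. HOXC genes start from near 0 in IGROV1 and from a higher level in DU145, so equal gains in CPM are unequal on the log2 scale.

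The next comparison asked which HOX genes differed with LIN28A in unedited cells. Between wild-type LIN28AOE and wild-type DU145, 5 of 30 HOX genes differed, where 9.21% of all genes differed, 6.67% higher and 2.55% lower. HOXA13 rose from 1.53, 2.28, 2.21 and 2.36 CPM to 5.59, 4.47, 6.98 and 7.80 CPM (1.57 ± 0.277; adjusted p = 1.30e-04) and HOXC13 rose to 15.3, 12.4, 17.5 and 16.9 CPM (0.69 ± 0.158). HOXB9 (-1.10 ± 0.192), HOXB3 (-0.78 ± 0.147) and HOXB4 (-1.77 ± 0.412) fell, HOXB3 to 5.92, 4.18, 5.21 and 5.17 CPM and HOXB4 to 0.332, 0.291, 0.220 and 0.101 CPM. The libraries of HOXA13, HOXB3, HOXB9 and HOXC13 did not overlap between the groups, and HOXB4 overlapped by 1 DU145 library. Without LIN28AOE replicate 3 or replicate 4 the count was 3, with HOXB4 and HOXC13 lost. HOXB4 was also lost without DU145 replicate 3, and HOXC13 without DU145 replicate 1 or 4 (adjusted p up to 2.85e-02 and 1.47e-02). The count was 1 when the fit held only these groups, 1 with replicates 1 and 2 and 2 with replicates 3 and 4. The groups also differ in passage (P157 to P160 against P1 to P4), lentiviral transduction and puromycin selection, which cannot be told apart from LIN28A.

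The 9 HOX genes that were not tested had 0 to 142 reads in all 36 libraries together: HOXB1 had 0, HOXC12 had 2, HOXD12 had 10, HOXA9 33, HOXD10 34, HOXA4 54, HOXA7 86, HOXD11 138 and HOXD13 142. The highest values of HOXD13 were in IGROV1 clone 2. HOXD13, the digit-patterning end of the cluster, was at 2.17, 1.52, 1.28 and 0.592 CPM there, at 0.457, 0.635, 0.723 and 0 CPM in clone 1, at 0.155, 0.237, 0 and 0.0518 CPM in wild-type IGROV1 and at 0 in all DU145 and LIN28AOE libraries. All 10 reads of HOXD12 came from IGROV1 clone 2. The 33 reads of HOXA9 came from DU145 and LIN28AOE, with none in IGROV1. No test was run on these values.

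The promoters of 2 genes that passed from near silence to expression or the reverse are given here, as the 250 bases before the RefSeq start (GRCh38.p14), on the gene's strand. HOXA13 (chr7:27200092-27200341, minus strand) holds 1 CCAAT box, in capitals, and 40 CG pairs, and HOXD8 (chr2:176129455-176129704, plus strand) holds 28 CG pairs and none of the 4 motifs searched on both strands, which were TATAAA, then TAATTA, then TGATTNAT and CCAAT.
HOXA13: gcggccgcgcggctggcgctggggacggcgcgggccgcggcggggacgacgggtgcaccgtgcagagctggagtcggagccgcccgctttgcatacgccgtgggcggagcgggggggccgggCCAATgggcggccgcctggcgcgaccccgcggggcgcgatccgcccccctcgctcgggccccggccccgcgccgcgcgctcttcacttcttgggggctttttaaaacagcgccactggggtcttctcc
HOXD8: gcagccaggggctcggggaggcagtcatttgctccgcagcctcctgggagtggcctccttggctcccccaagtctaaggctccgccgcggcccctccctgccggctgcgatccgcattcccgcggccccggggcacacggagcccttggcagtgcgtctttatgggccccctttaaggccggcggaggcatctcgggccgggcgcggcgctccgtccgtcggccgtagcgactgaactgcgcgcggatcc
Both windows are rich in CG pairs. The 27 promoters found for 20 of the 39 genes had a median of 19 CG pairs, against 11 over all 35116 promoters. Several of the 27 belong to HOXA3, HOXC4 and HOXC5 share the same window, and HOXB1 is the only HOXB gene among them. CCAAT was in 66.7% of the HOX promoters and 32% of all, TATAAA in 18.5% and 10.7%, TAATTA in 7.41% and 4.35%, and TGATTNAT, a site of PBX and HOX pairs, in 7.41% and 2.48%. These shares describe letters in a window and say nothing about what binds there.

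Genes within 1 Mb of each cluster were set beside it. Near HOXB, 14 of 30 tested flanking genes were higher and 0 lower in the IGROV1 mutants, where 15.1% of all genes were higher and 18.1% lower, with a median log2 change of 0.53 (-0.39 to 2.79), below the HOXB median of 1.18. In DU145 clone 2, 5 of the 30 were higher and 1 lower, where 9.99% of all genes were higher and 10.5% lower, and the median was 0.13, against 1.36 for HOXB. Near HOXC, 10 of 31 rose and 3 fell in the IGROV1 mutants with a median of 0.21, and near HOXA 1 of 8 rose and 1 fell. Near HOXD 3 flanking genes were tested, and 1 fell.

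Of 18 tested noncoding and neighbouring genes of the clusters, 4 rose and 2 fell in the IGROV1 mutants (median 0.32, against 0.00 over all genes), a share close to the 33.2% of all genes called. They were CALCOCO1 beside HOXC (2.24 ± 0.228), SKAP1 beside HOXB (2.05 ± 0.259), the antisense RNAs HOXC-AS1 (1.85 ± 0.31) and HOXB-AS1 (1.19 ± 0.267), HAGLR in HOXD (-1.25 ± 0.218) and HOTAIRM1 in HOXA (-0.71 ± 0.216). Antisense genes overlap their partners, and the strand setting of the counting is not given in the sources used here. In the DU145 mutants 0 of the 18 rose and 3 fell (18.1% of all genes were called), among them SKAP1 (-1.10 ± 0.194) and HAGLR (-0.86 ± 0.168), and in LIN28AOE, where 17.9% of all genes were called, HOTAIRM1 rose (0.78 ± 0.223) and HAGLR fell (-0.84 ± 0.162). SKAP1, the neighbour of HOXB1, was at 8.67 ± 1.8 CPM in wild-type DU145, 1.04 ± 0.434 CPM in clone 1 and 16.8 ± 1.68 CPM in clone 2. HOXB-AS3 was at 5.12 ± 0.592 CPM in wild-type IGROV1, 26.4 ± 12.6 CPM in clone 1 and 1.54 ± 0.193 CPM in clone 2. HOTAIR, the HOXC noncoding RNA that binds Polycomb, was at 1.95 CPM in wild-type DU145 and at 0 in all IGROV1 libraries.

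PBX, MEIS and PKNOX proteins bind DNA together with HOX factors. In the IGROV1 mutants 2 of 8 tested rose and 1 fell (median 0.15), a share near the 33.2% of all genes called. MEIS1 rose from 0.159 ± 0.0726 CPM to 7.30 ± 1.48 CPM in clone 1 and 1.47 ± 0.351 CPM in clone 2 (4.34 ± 0.382; adjusted p = 1.92e-11), MEIS3 rose (2.57 ± 0.285), and MEIS2 fell from 40.1 ± 5.34 CPM to 14.8 ± 2.62 and 7.18 ± 1.5 CPM (-1.94 ± 0.113). In DU145 3 of the 8 rose, MEIS2 (0.48 ± 0.126), MEIS3 (1.15 ± 0.195) and PBX4 (1.06 ± 0.262), where 18.1% of all genes were called. In the LIN28AOE mutants, with 17.9% of all genes called, MEIS3 (1.11 ± 0.181) and MEIS2 (0.86 ± 0.125) rose and PBX2 (-0.70 ± 0.104) fell.

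Of the regulators known to hold HOX genes silent, the Polycomb complexes, 6 of 17 tested genes rose and 0 fell in the IGROV1 mutants, with a median of 0.12, led by CBX8 (0.96 ± 0.146), where 33.2% of all genes were called, 15.1% higher and 18.1% lower. The core enzyme genes EZH2, EED and SUZ12 were not among the 6. In DU145 and LIN28AOE, where 2 and 3 of the 17 were called beside 18.1% and 17.9% of all genes, BMI1 fell (-1.01 ± 0.189 and -1.49 ± 0.188) and CBX2 rose (1.12 ± 0.228 and 1.03 ± 0.191). Of 15 genes of the MLL, COMPASS and H3K79 complexes, which keep HOX genes active, 4 rose and 2 fell in the IGROV1 mutants (33.2% of all genes were called), with MLLT3 (-1.18 ± 0.155) and AFF1 (1.08 ± 0.177) the most changed. In DU145 3 of the 15 rose and 3 fell (18.1% of all genes), with KMT2C (-0.90 ± 0.151) and AFF1 (0.87 ± 0.177) the most changed.

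Retinoic acid and the CDX factors switch on HOX genes in the embryo. Of 13 tested genes of retinoic acid signalling and the CDX family, 4 rose and 4 fell in the IGROV1 mutants (median 0.28), where 33.2% of all genes were called. ALDH1A1, which makes retinoic acid, fell from 943 ± 36.9 CPM to 57.8 ± 10.7 and 129 ± 38.2 CPM (-3.42 ± 0.174), and ALDH1A3 and CYP26A1 fell too, by 2.66 and 1.60 on the log2 scale. CYP26A1, which degrades retinoic acid and is itself one of its targets, rose in the DU145 mutants (1.44 ± 0.343) and in LIN28AOE (2.25 ± 0.292). In total 1 gene of the list rose and 1 fell in the DU145 mutants and 2 rose and 3 fell in LIN28AOE, beside 18.1% and 17.9% of all genes called.

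The miRNAs inside the clusters were measured in 36 small RNA libraries of the same 9 groups, with 5703566 to 13957450 counted reads each. Their mature sequences (RefSeq, GRCh38.p14) are given with the seed, bases 2 to 8, in capitals, because miR-196a-5p of the HOXB and HOXC clusters and miR-196b-5p of HOXA carry one seed and differ outside it.
miR-10a-5p: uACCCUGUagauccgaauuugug
miR-196a-5p: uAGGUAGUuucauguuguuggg
miR-196b-5p: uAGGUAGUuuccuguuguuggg
miR-615-3p: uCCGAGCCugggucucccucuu
miR-10a-3p: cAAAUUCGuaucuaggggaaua
miR-10b-3p: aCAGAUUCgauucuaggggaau
The gene of miR-10a lies between HOXB4 and HOXB5, inside the annotated span of HOXB3 (miR-10a-5p at chr17:48579904-48579926, minus strand) and that of miR-10b between HOXD8 and HOXD4, inside that of HOXD3 (miR-10b-3p at chr2:176150368-176150389, plus strand). miR-196a-5p has 2 genes, one between HOXB9 and HOXB13, inside the span of HOXB7 (chr17:48632532-48632553, minus strand), and one between HOXC10 and HOXC9, inside that of HOXC6 (chr12:53991762-53991783, plus strand), and their reads cannot be told apart. miR-196b lies inside the annotated span of HOXA9 (chr7:27169528-27169549, minus strand) and miR-615 inside HOXC5 and the span of HOXC4 (miR-615-3p at chr12:54034010-54034031, plus strand). miR-10 and miR-196 are known to pair with HOX mRNAs themselves.

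Of 10 mature arms 9 were tested. In the series table, the columns of LIN28AOE wild-type replicate 2 and LIN28AOE clone 1 replicate 2 each matched the other's own count file better than their own (r of at least 0.9626 against at most 0.9191 over 374 miRNAs), so reads per 1000000 (RPM) are given from the library's own file and tests from both sources. In the IGROV1 mutants 7 arms differed, 4 higher and 3 lower, in either source (39.5% of all miRNAs in the series table, 43.2% in the own files).

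In IGROV1, miR-10a-5p of the HOXB cluster was at 17069, 16095, 17439 and 15986 RPM in wild-type cells, at 60142, 55079, 57425 and 59864 RPM in clone 1 and at 20126, 18195, 18872 and 21065 RPM in clone 2. The 3 groups did not overlap, and the log2 change of the mutants was 1.03 ± 0.134 in the series table and 0.95 ± 0.103 in the own files. miR-10b-5p of HOXD was at 15374, 13570, 15170 and 13338 RPM, at 3911, 3612, 3847 and 3679 RPM and at 7372, 7413, 7989 and 8083 RPM, so that all mutant libraries lay below wild type. Its change was -1.40 ± 0.448 in the series table (adjusted p = 9.55e-03, lost without any one of the 12 IGROV1 libraries, up to 2.50e-02) and -1.48 ± 0.155 in the own files (adjusted p = 3.43e-10). The series-table call of miR-10b-3p (-1.5 ± 0.441) was lost without wild-type replicate 1 or 3 (up to 2.00e-02).

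The arms of lower abundance in IGROV1 also moved. miR-196a-5p, made in HOXB and HOXC, was at 20.2, 18.6, 16.1 and 20.1 RPM in wild type, at 21.7, 19.2, 21.8 and 15.2 RPM in clone 1 and at 86.7, 87.4, 74.9 and 76.1 RPM in clone 2 (mutants 1.13 ± 0.125 in the series table). Clone 1 overlapped wild type and clone 2 stood above both. miR-615-3p, which lies in HOXC5, was at 7.42, 5.88, 7.17 and 11.2 RPM, at 21.7, 18.2, 15.9 and 12.6 RPM and at 28.7, 33.3, 28.3 and 22.5 RPM (1.58 ± 0.186), without overlap with wild type. miR-196b-5p of HOXA was at 1.36 to 1.78 RPM in wild type and below 1 RPM in all 8 mutant libraries (-1.77 ± 0.259). For comparison, wild-type DU145 had 373 to 483 RPM of miR-196a-5p, 172 to 197 RPM of miR-196b-5p, 348 to 432 RPM of miR-615-3p and 66.3 to 71.0 RPM of miR-10b-5p, and all 9 tested arms differed between the wild-type lines in either source (57% and 56.8% of all miRNAs). miR-10b-5p was higher in IGROV1 by 7.43 ± 0.713 in the series table, and miR-196a-5p, miR-196b-5p and miR-615-3p were lower by 4.42, 7.21 and 5.89 on the log2 scale.

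**Figure D5:**
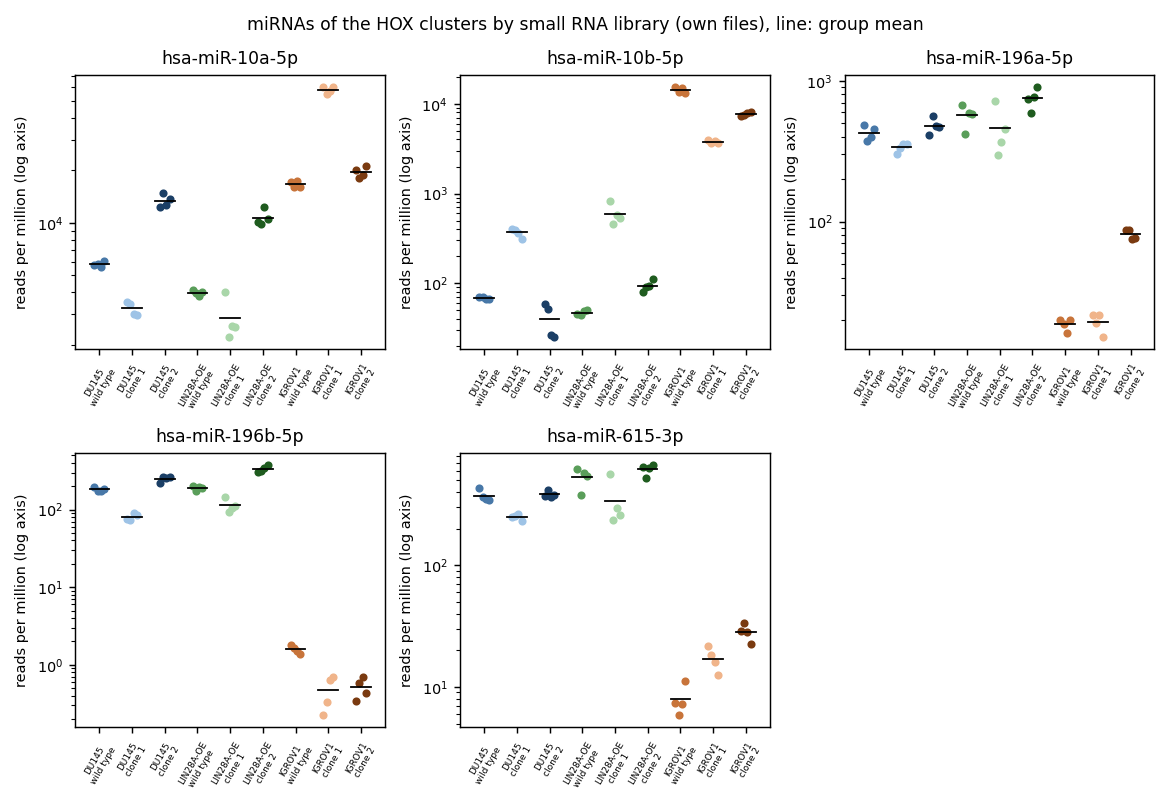
RPM of 5 mature miRNAs of the HOX clusters in each of 36 small RNA libraries (points, from each library's own file, log axes) with the group mean, for 9 groups. miR-10a-5p is highest in IGROV1 clone 1, miR-10b-5p is at 309 RPM or more in clone 1 of DU145 and LIN28AOE and at 111 RPM or less in their wild types and clone 2, and miR-196b-5p is at most 1.78 RPM in IGROV1.

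In DU145 miR-10a-5p was at 5752, 5811, 5605 and 6037 RPM in wild type, at 3528, 3447, 3007 and 2945 RPM in clone 1 and at 12310, 14752, 12706 and 13643 RPM in clone 2, 3 ranges without overlap. The clones differed by -1.49 ± 0.151 (clone 1 minus clone 2, series table). In the opposite direction, miR-10b-5p was at 70.5, 71.0, 66.3 and 66.4 RPM in wild type, at 407, 396, 366 and 309 RPM in clone 1 and at 58.3, 51.5, 26.7 and 25.4 RPM in clone 2 (3.67 ± 0.602). Beside these, the 4 libraries of clone 2 had the highest HOXB6 levels of DU145 and no read of HOXD8, one of the genes that flank miR-10b. HOXD4, which flanks it on the other side, and HOXD3 were at most 0.267 CPM in every DU145 library, also in clone 1, where miR-10b-5p was highest. In the DU145 clones 5 arms differed in either source (21.4% and 25.8% of all miRNAs). Over the mean of both clones the series table gave 0 called arms in DU145 by edgeR (21.1% of all miRNAs), with 4 at an unadjusted p under 0.05 and 1 called by DESeq2, and the own files gave 3 (27.6%).

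LIN28AOE had the same order of clones. miR-10a-5p was at 4148, 3942, 3811 and 4019 RPM in wild type, at 4019, 2226, 2560 and 2527 RPM in clone 1 and at 10147, 9854, 12335 and 10533 RPM in clone 2, where clone 1 replicate 1 overlapped wild type. miR-10b-5p was at 45.1, 44.6, 49.1 and 49.8 RPM, at 818, 453, 582 and 534 RPM and at 80.8, 91.8, 93.2 and 111 RPM, again without overlap. Clone 2 thus had more miR-10b-5p than wild type but less HOXD8, at 0.184 to 0.303 CPM against 1.27 to 2.50 CPM. The clones differed by -1.25 ± 0.15 for miR-10a-5p, 2.73 ± 0.576 for miR-10b-5p and -0.90 ± 0.195 for miR-196b-5p in the series table, and by -1.37 ± 0.116, 3.23 ± 0.204 and -0.99 ± 0.117 in the own files, with 5 arms called in the first source and 6 in the second (15.8% and 28.3% of all miRNAs). Over the mean of both clones 2 arms were called in the series table, miR-10a-5p (0.60 ± 0.131) and miR-10a-3p (0.58 ± 0.099), where 4.46% of all miRNAs were called, and 6 in the own files (31.4%). The call of miR-10a-5p was lost without wild-type replicate 1 (1.73e-02). The IGROV1 clones differed in 4 arms in the series table and 5 in the own files (20.8% and 22.1%), with miR-10a-5p higher in clone 1 (1.59 ± 0.151) and miR-196a-5p (-2.06 ± 0.141) and miR-615-3p (-0.75 ± 0.196) higher in clone 2. The call of miR-615-3p was lost without clone 1 replicate 3 or 4 or clone 2 replicate 2 (up to 1.28e-02).

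Between wild-type LIN28AOE and wild-type DU145, miR-10a-5p (-0.73 ± 0.148) and miR-10a-3p (-0.90 ± 0.112) were lower with LIN28A in the series table, the 2 arms called of 9 tested (8.43% of all miRNAs). In the own files 4 arms were called (11.4%), with miR-196a-5p (0.44 ± 0.107) and miR-615-3p (0.53 ± 0.142) higher. HOXB4, on one side of miR-10a, was lower in the same comparison of mRNA, a call lost without DU145 replicate 3 or LIN28AOE replicate 3 or 4. HOXB5, on the other side, was not called, at 5.26, 5.11, 9.40 and 8.31 CPM in LIN28AOE and 6.04, 5.50, 4.87 and 8.25 CPM in DU145.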

How the data were processed

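Poly(A) mRNA (NEBNext Ultra II Directional) and small RNA (NEXTFlex) were sequenced in 36 libraries each. Per the study's methods, the authors trimmed mRNA reads with Trimmomatic 0.39, removed ribosomal RNA with SortMeRNA, aligned to hg38 with HISAT2 2.1.0 and counted reads per gene with HTSeq-count, and the deposited values are raw counts. The strand and overlap settings of the counting are not given in the sources used here. The 5 rows that name no gene, which held 21.87% to 30.07% of the reads of a library, were left out of library sizes. For small RNA the authors deposited a table of raw counts per mature miRNA made with miRDeep2 and, for each library, a count file of miRNA isoforms.

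Groups came from the sample labels. All 36 libraries entered 1 model of 9 groups without covariates in edgeR 4.0.16 (R 4.3.3; TMM, filterByExpr with a minimum count of 10, quasi-likelihood F test). Benjamini-Hochberg adjustment ran over 15556 genes, or over 830 miRNAs of the series table and 929 of the own files, and adjusted p under 0.01 was called. Log2 changes are given with their SE. CPM is reads per 1000000 counted on genes, without TMM factors, and RPKM uses the annotated length. Ratios on 1 to 3 reads carry exact 95% counting intervals, which cover counting error only. Groups with 0 reads were set to a floor of 3 over the group. The fit was tested on simulated data. DESeq2 1.42.0, other scaling, no filter on low counts, fewer libraries and left-out libraries were tried.

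A few genes are not reported here by name and remain in counts and sums. The members and the gene lists were chosen with earlier results of these data known. Named genes were, per comparison, the called HOX genes with the largest log2 change, up to 8, the highest member of each cluster, and up to 4 called genes of each other list. Genes such as HOXB3, HOXB7 and the untested members were named beyond that after their values were seen. Replicates of a group differed by more than sampling noise, so none was taken as a repeat deposit. The isoform files were also read as totals per miRNA, and promoters, positions and mature sequences came from GENCODE and RefSeq.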

Additional observations from a re-analysis of the deposited data

Results flagged for a closer look

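Single libraries stood apart from the other 3 of their group in 15 of 251 combinations of gene and group, by the gap to the nearest library relative to the whole range. Chance gives about 1 in 20 such groups for continuous values. A group with reads in only 1 library always meets this rule, so that rate does not hold for the lowest counts. In IGROV1 clone 1, replicate 4 did so for HOXA5 (5.3 CPM, the others 3.43 to 3.72), HOXB8 (121, the others 95.9 to 100), HOXC4 (0.647, the others 0) and HOXC10 (1.03, the others 1.86 to 2.0), replicate 1 for HOXD3 (1.37, the others 0.647 to 0.741) and replicate 3 for HOXC6 (1.96, the others 1.26 to 1.38). In IGROV1 clone 2, HOXA10 was at 0.0753 CPM in replicate 3 and 0 in the others, HOXB2 was at 212 in replicate 2 against 200 to 202, and HOXC10 at 6.71 in replicate 4 against 7.83 to 7.94. In wild-type IGROV1 these values rest on single reads, with HOXC5 at 0.0518 CPM in replicate 4 and HOXC13 at 0.0593 CPM in replicate 2 and no read in the others. In DU145, HOXA3 was at 18 CPM in clone 2 replicate 3 (the others 12.6 to 13.4). In LIN28AOE, HOXA5 was at 3.75 CPM in clone 1 replicate 1 (4.56 to 4.7), and in clone 2 replicate 2 HOXB8 was at 14 (10.1 to 10.3) and HOXD4 at 0.184 (the others 0).

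The change from wild type to mutant clones differed between IGROV1 and DU145 for 10 HOX genes by the test of the difference itself (edgeR, adjusted p under 0.01). The log2 difference was 3.25 for HOXA13, 0.98 for HOXB3, 0.77 for HOXB6, 2.0 for HOXC6, 2.63 for HOXC8, 2.49 for HOXC9, 1.19 for HOXC10 and -0.84 for HOXD9. For HOXC13 (5.92) and HOXD8 (2.37) the fitted value depends on the prior count, since HOXC13 had 1 read in wild-type IGROV1 and HOXD8 had none in DU145 clone 2.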

How the results depend on the processing

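Of 300 recomputed counts of called HOX genes, 271 stayed within 1.5 times the count given, and so did 143 of 164 counts of miRNA arms. Of 2837 recomputed values of single called HOX genes, 2567 stayed called, 270 lost the call and 0 changed sign. The cause of the changes was not tested, beyond the smaller number of libraries where replicates were left out.

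With only the compared groups in the fit, the HOX count was 1 in place of 5 for wild-type LIN28AOE against wild-type DU145, 8 in place of 14 between the IGROV1 clones and 0 in place of 3 for LIN28AOE clone 1. With replicates 1 and 2, and with replicates 3 and 4, the counts were 3 and 0 for the LIN28AOE mutants (8), 1 and 2 for the wild types with and without LIN28A (5), 9 and 6 between the IGROV1 clones (14), 8 and 6 between the LIN28AOE clones (14), 6 and 5 for the IGROV1 against DU145 difference (10), 0 and 0 for clone 1 of DU145 and of LIN28AOE (3 each) and 7 and 6 for LIN28AOE clone 2 (11). Between the DU145 clones (12) replicates 3 and 4 gave 6. At an adjusted p of 0.05, 5 genes were called in DU145 clone 1. DESeq2, RLE size factors and no filter on low counts kept all HOX counts within 1.5 times. Counts for single clones against wild type were tried as alternatives chosen after seeing the data.

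Leaving out 1 library at a time, the HOX counts ranged from 19 to 21 in the IGROV1 mutants, 6 to 6 in DU145, 5 to 8 in LIN28AOE, 24 to 25 between the lines, 3 to 7 for LIN28A, 11 to 14, 9 to 12 and 11 to 13 between the clones of IGROV1, DU145 and LIN28AOE, 9 to 12 for the IGROV1 against DU145 difference and 0 to 0 for that of LIN28AOE against DU145. For single clones they were 17 to 20 and 12 to 14 in IGROV1, 2 to 3 and 9 to 10 in DU145 and 0 to 3 and 8 to 10 in LIN28AOE. The miRNA counts ranged from 5 to 6, 0 to 0 and 1 to 4 in the mutants of IGROV1, DU145 and LIN28AOE, 9 to 9 between the lines, 2 to 3 for LIN28A and 3 to 4, 5 to 5 and 5 to 6 between the clones.

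For miRNA arms, DU145 mutants (0 called) gave 2 at an adjusted p of 0.05, 1 by DESeq2, 5 with only the compared groups, 3 from the own files and 4 without the 2 columns that match each other's file. The LIN28AOE mutants (2) gave 0 without a filter, 0 with only the compared groups, 0 with replicates 1 and 2, 5 with replicates 3 and 4, 6 from the own files and 6 without those columns. The wild types with and without LIN28A (2) gave 1 with only the compared groups, 0 with replicates 1 and 2, 4 with replicates 3 and 4, 4 from the own files and 5 without those columns. Replicates 1 and 2 gave 2 between the DU145 clones (5) and 0 between the LIN28AOE clones (5), for which only the compared groups gave 2. The own files and the left-out columns were chosen after seeing the data.

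The replicate numbers were not used to pair the libraries, since not every same-numbered pair deviated together. The deviations of same-numbered libraries correlated above 0.1 in 7 of 12 pairs in DU145, 9 of 12 in LIN28AOE and 5 of 12 in IGROV1, and in 35 of 72 comparisons a library correlated best with its own number, where chance gives 1 in 4. In LIN28AOE, where a number is also the same passage in every group, the median correlation was 0.27 for the same number and -0.137 for others. With the replicate number as a block, 19 HOX genes were called in the IGROV1 mutants, 6 in DU145, 8 in LIN28AOE, 24 between the lines, 5 for LIN28A, 14, 13 and 14 between the clones and 10 and 0 for the differences of effects. The calls lost were 3, HOXC10 between the LIN28AOE clones (log2 difference -0.35, adjusted p = 1.08e-02), HOXB2 in DU145 clone 1 (0.75, 1.02e-02) and miR-10b-5p in the IGROV1 mutants (-1.40, 1.24e-02).

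Depth limits the low members. In wild-type IGROV1, clone 1 and clone 2, HOXC8 rests on 8, 23 and 90 reads over the 4 libraries, HOXD1 on 44, 4 and 14 and HOXD13 on 8, 27 and 107. The 4 passages of a line or clone give no estimate of the spread between clones.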
